A study of Drosophila melanogaster with 18 samples.

Results

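Embryos of the fruit fly Drosophila melanogaster carrying orb2-delta-zz were compared between the first hour after egg laying (0-1h) and the second (1-2h). ORB2 belongs to the CPEB proteins, which bind RNA and control its translation, and the series title names its zinc-binding ZZ domain, which the allele name marks as deleted; the labels say no more about the lesion. The comparison used 6 of the 18 RNA-seq libraries of the series, 3 from orb2-delta-zz embryos at 0-1h and 3 from orb2-delta-zz embryos at 1-2h, and every gene listed at both times. The groups set beside them were w1118 embryos, described as a pre-injected control and labelled wild type, with 3 libraries at 0-1h and 3 at 1-2h, and orb2-delta-zz embryos at 2-3h, with 3 libraries. All were whole embryos collected in 1-hour windows from flies kept in the same conditions, and total RNA was sequenced after removal of ribosomal RNA and other common non-coding species. Each library is a bulk extract of many embryos, so every value is an average over embryos that differ in age within the hour and over all of their cells. Fewer cells of a type and less RNA per cell cannot be told apart in such extracts. Nothing in the labels says whether replicates came from separate cages or collections, so the p-values measure the spread between these libraries, which may be technical.

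In the fly, the mother loads the egg with RNA during oogenesis, and the embryo divides as a syncytium of nuclei before most of its own genes are transcribed. Maternal transcripts are then destroyed in waves, first by factors that come from the mother and are switched on by egg activation, and later by products of the embryo's own genome. The earliest zygotic genes are short, often lack introns and include those that count X chromosomes, pattern the body axes and build the first cell membranes. The interval from 0-1h to 1-2h spans the first maternal clearance and the start of the minor wave of zygotic transcription.

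Values are TPM, a level scaled for transcript length and for the total of each library. Because TPM is a share, a rise of some transcripts lowers the share of the others, and absolute amounts were not measured. Changes are differences in log2(TPM + 1), which understate the change of genes near 0, and each was tested with limma, adjusted by the Benjamini-Hochberg method over all genes tested; a gene was called at an adjusted p under 0.05. The fit held the 7100 genes listed at both times with a mean TPM of at least 1 over the 6 libraries. The 0-1h and 1-2h values come from separate deposited tables, so time and table coincide. TPM columns summed to between 998584 and 999093, as TPM does by construction. Depth is unknown, since TPM keeps no read counts. Within each group the libraries correlated at 0.996 or more (Pearson, log2(TPM + 1), across genes). Long transcripts set some libraries slightly apart: among genes with transcripts over 8000 bases, the median deviation from the group mean was -0.14 (log2) in the first 1-2h library, 0.12 in the second 0-1h library and -0.16 in the third 0-1h library, and its part in the results was not tested.

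The maternal transcripts nanos, bcd, osk and CycB, which define the early embryo, were listed in every library. Among markers of later embryos, 14 of the 21 matched genes, including the muscle genes Mhc and wupA and the neuronal genes nSyb and brp, were listed at neither time, and the summed TPM of the listed ones was 24.3 to 26.4 at 0-1h and 30.4 to 38.0 at 1-2h. None of 19 matched chorion, vitelline membrane and yolk protein genes of ovarian follicle cells was listed. The orb2 gene stood at 25.8, 29.2 and 24.7 TPM at 0-1h and at 24.1, 24.3 and 22.3 TPM at 1-2h, and its change of -0.16 on the log2 scale was not called (limma, adjusted p = 0.109). A whole-gene level does not check a deletion inside the gene, and orb2 overlaps CG43783 on the same strand.

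Of the 7100 genes, 1587 were higher at 1-2h (22.4%) and 2649 were lower (37.3%). A rise of at least 2-fold was called for 316 genes (4.45%), and a fall of that size for 812 (11.4%). These counts depend on how low genes are treated: with a pseudocount of 5 they were 164 and 636, and with only genes of a mean TPM of at least 5 they were 153 and 795. At 4-fold the order turned, with 148 genes higher and 119 lower, and at 8-fold 23 were higher and 5 were lower. Over all genes tested the median change was -0.05, over those called higher it was 0.28, and over those called lower it was -0.67. Libraries of the 2 hours did not overlap for 4775 genes (67.3%). The balance of small changes depended on the scaling: 37.5% of calls were rises on TPM as deposited, 48.2% after trimmed mean rescaling and 46.1% after median-of-ratios rescaling. All 1128 calls of at least 2-fold kept their call and sign under either rescaling.

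**Figure D1:**
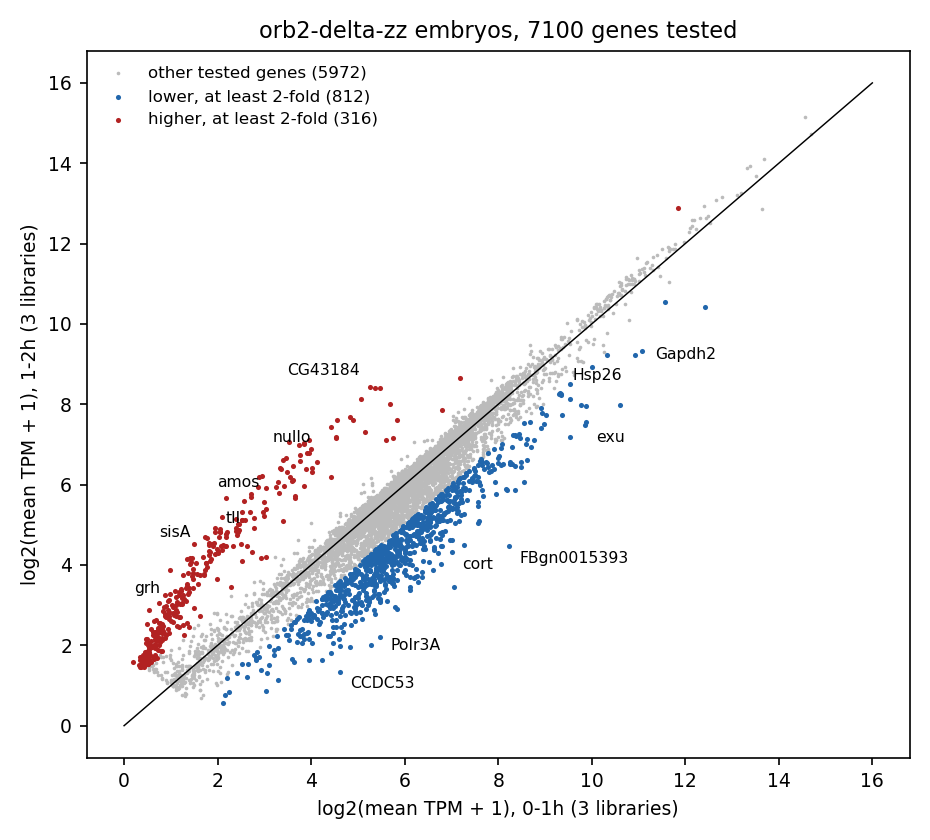
Mean level of each of the 7100 tested genes in orb2-delta-zz embryos at 0-1h (horizontal) and 1-2h (vertical), both as log2(mean TPM + 1) of 3 libraries; the line marks equal levels. The 316 genes that rose at least 2-fold lie mostly at low levels at 0-1h, and the 812 that fell at least 2-fold lie mostly at middle and high levels.

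The genes that rose at least 2-fold started low. Their median TPM was 1.36 at 0-1h and 8.16 at 1-2h, and it was 48.8 in the orb2-delta-zz libraries of 2-3h. Together they held between 0.461% and 0.648% of all TPM in the 0-1h libraries and between 1.57% and 1.89% in the 1-2h libraries. Of these 316 genes, 135 had a mean TPM under 1 at 0-1h and so entered the fit only through their 1-2h level, which means that they had to be higher there. The genes that fell at least 2-fold had a median TPM of 53.3 at 0-1h, 18.3 at 1-2h and 10.5 at 2-3h, and their share of all TPM went from between 8.61% and 8.88% to between 2.91% and 3.22%.

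Gene structure, which played no part in the calls, differed between the classes. By the Ensembl BDGP6.54 annotation, 26.8% of the genes that rose at least 2-fold had a single exon, against 10.7% of those that fell at least 2-fold and 11.1% of all tested genes. Read the other way, 84 of 781 single-exon genes rose at least 2-fold (10.8%), against 229 of 6267 genes with more exons (3.65%), while falls of that size took 11.0% and 11.5% of them. Non-coding RNA genes rose at least 2-fold in 19 of 126 cases (15.1%) and fell in 6. On the X chromosome 2.58% of 1238 tested genes rose at least 2-fold, against 4.08% to 5.65% on the major autosome arms. Falls were spread more evenly, between 10.8% and 12.6% of genes on the X and these arms, and none of the 61 tested genes of chromosome 4 fell that far. The shares of rises count the 135 genes that entered the fit only through their 1-2h level, and shares without those genes were not taken. Genes are not independent replicates, and these shares are given as descriptions.

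The 10 largest rises and falls were taken from called genes whose libraries of the 2 hours did not overlap, so their separation is part of the choice. The proneural factor amos had 4.69, 3.66 and 2.22 TPM in the 0-1h libraries and 52.9, 46.0 and 51.7 TPM in the 1-2h libraries. This was a rise of 3.54 ± 0.18 (SE) in log2(TPM + 1) (adjusted p = 2.86e-07). By 2-3h amos had come down to 11.8, 11.1 and 9.46 TPM. The screw gene scw, which encodes a BMP ligand of the dorsal side, went from 7.41, 6.09 and 6.50 to 81.0, 61.8 and 76.9 TPM (log2 change 3.27 ± 0.11, adjusted p = 5.17e-08). The nullo gene, needed for stable furrow canals during cellularization, went from 11.1, 9.39 and 9.36 to 106, 89.2 and 104 TPM (log2 change 3.20 ± 0.0919). Each of these 3 genes stood lower at 2-3h than at 1-2h, scw at 44.1, 43.5 and 34.4 TPM and nullo at 50.9, 49.5 and 37.8 TPM. The other 7 of the 10 largest rises had a higher mean at 2-3h than at 1-2h.

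Elba3, a subunit of the Elba insulator complex of the early embryo, went from 18.3, 13.1 and 11.8 to 145, 119 and 148 TPM, a log2 change of 3.18 ± 0.15. Bro, a partner of Runt-domain factors, had 10.3, 9.86 and 8.35 TPM and then 107, 91.2 and 94.2 TPM, a log2 change of 3.23 ± 0.0933. Little is annotated for CG43184 and CG43659, yet CG43184 was the most abundant of the 10 at 1-2h, with 373, 311 and 344 TPM after 48.4, 35.8 and 27.7 TPM. For CG43659 the levels were 8.67, 5.07 and 5.47 and then 84.7, 69.5 and 61.6 TPM. The largest change of all, 3.62 ± 0.26, was that of sisRNA:CR46358, a stable intronic RNA whose levels were 5.56, 13.01 and 12.9 TPM and then 141, 116 and 143 TPM. It lies within CG9775 on the same strand, and Sry-alpha and dunk, which are also among the 10, overlap Sry-beta and CG42748 on the same strand, so their reads are less certain.

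The cellularization list, zygotic genes of cellularization and of the cell cycle pause, rose throughout. All 9 tested members were called higher, with a median change of 2.86 against -0.05 over all genes. The list also holds amos, named above as a proneural factor. Its summed TPM was 307, 270.0 and 228 in the 0-1h libraries and 1202, 1098 and 1324 in the 1-2h libraries. The 0-1h libraries also differ among themselves here, with the first above the third. Sry-alpha, an actin regulator of the cellularization front, went from 17.9, 10.6 and 8.45 to 145, 101 and 131 TPM. The slam gene, whose product directs membrane growth at the furrow, was already abundant at 0-1h with 159.7, 151 and 120.0 TPM and reached 375, 368 and 458 TPM (log2 change 1.48 ± 0.12). The smallest rise of the list was that of trbl, which slows mitosis in gastrulating cells by acting on String, from 34.1, 34.2 and 32.9 to 67.5, 55.4 and 67.2 TPM.

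The list of X-signal elements, zygotic genes on the X whose dose sets sex through Sex-lethal, also held other early sex determination genes. Of its 10 tested members, 7 were called higher (70.0%, against 22.4% of all genes) and 2 lower (20.0%, against 37.3%), with a median change of 1.56. The called rises ran from 0.24 for gro to 3.00 for sisA. The bZIP factor gene sisA went from 1.42, 2.35 and 3.15 to 26.1, 22.5 and 25.9 TPM, a log2 change of 3.00 ± 0.18 (adjusted p = 6.81e-07). The bHLH factor gene sc (scute) went from 1.69, 1.36 and 1.56 to 18.5, 15.5 and 16.4 TPM and stood at 5.03, 4.66 and 4.63 TPM at 2-3h. The maternal partner of these factors, da (daughterless), fell by 0.56 on the log2 scale, from 139.7, 147 and 129 to 94.8, 92.9 and 93.4 TPM. The target gene Sxl was lower by a small margin, with 166, 166 and 164 TPM and then 159, 144 and 138 TPM (log2 change -0.17, adjusted p = 0.031), and this call was lost under 9 of the 15 alternatives. At 2-3h Sxl was at 530.2, 518 and 623 TPM.

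Segmentation genes of each tier rose. Among gap and terminal genes, transcription factors that divide the embryo into broad domains, 11 of 13 tested were called higher, and none was called lower (median change 1.71). The terminal gap gene tll (tailless) went from 3.63, 2.48 and 2.43 to 28.9, 23.8 and 29.7 TPM, a log2 change of 2.90 ± 0.14. Its fellow gap gene gt (giant) went from 2.69, 2.44 and 1.49 to 18.2, 15.9 and 18.2 TPM, a log2 change of 2.54 ± 0.15. The 2 uncalled members were hb (hunchback), which the mother also supplies, at 147, 155 and 141 and then 116, 148 and 157 TPM, and cnc, at 93.0, 96.7 and 86.7 and then 83.1, 82.7 and 86.2 TPM. All 6 tested pair-rule genes, which divide the embryo into parasegments, were called higher (median 2.36), and their summed TPM went from 9.73, 7.78 and 6.55 to 62.5, 62.0 and 75.5. Among them run (runt) went from 2.54, 1.48 and 1.20 to 18.3, 14.8 and 17.9 TPM, and slp1 from 1.43, 1.38 and 1.94 to 11.8, 12.1 and 15.0 TPM. The 7 tested segment polarity and Hox genes were called higher, with a median of 1.35, from lower levels: 4 of them had a mean TPM under 1 at 0-1h and so were tested only through their 1-2h level, which had to be higher. The Hedgehog receptor gene ptc had 3.24, 1.92 and 2.59 TPM and then 16.9, 16.5 and 15.3 TPM, and the Hedgehog effector gene ci had 3.69, 1.80 and 3.50 TPM and then 17.8, 21.1 and 17.8 TPM. A further 6 genes of this list, among them Ubx, Scr and hh, were listed at both times with a mean TPM under 1 and were not tested. The filter bore likewise on 5 of the 13 gap and terminal genes and 1 of the 6 pair-rule genes. Among members with a mean TPM of at least 1 at 0-1h, 6 of 8 gap and terminal genes, 5 of 5 pair-rule genes and 3 of 3 segment polarity and Hox genes were called higher.

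Dorsoventral genes, the targets of the Dorsal gradient and of BMP signals, rose in 23 of 26 tested cases, with a median change of 1.71; 11 of the 26 had a mean TPM under 1 at 0-1h, and of the other 15, 12 rose. The dorsal BMP modulator tsg (twisted gastrulation) went from 10.5, 8.23 and 8.75 to 90.9, 70.9 and 85.3 TPM, a log2 change of 3.04 ± 0.11. In the mesoderm, sna (snail) went from 3.78, 2.25 and 2.34 to 21.2, 22.7 and 23.8 TPM and twi (twist) from 1.48, 0.901 and 1.83 to 11.9, 11.4 and 14.3 TPM. The dorsal homeobox gene zen went from 6.53, 5.81 and 4.13 to 36.2, 34.3 and 46.6 TPM, so genes of both the ventral and the dorsal side were among those that rose. The gastrulation ligand gene fog was the only member called lower, at 18.4, 17.9 and 19.0 TPM and then 14.8, 16.6 and 15.7 TPM (log2 change -0.22, adjusted p = 0.0303), a call lost under 9 of 15 alternatives. Enhancer of split and Bearded family genes, which act in Notch signalling, were called higher in all 7 tested cases (median 2.69), 1 of which had a mean TPM under 1 at 0-1h. Within this family BobA had 28.4, 11.4 and 21.7 TPM and then 182, 171 and 162 TPM, and Tom had 16.3, 8.70 and 18.7 TPM and then 125, 109 and 92.2 TPM. A further 6 members were listed in the 1-2h table and not in the 0-1h table.

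**Figure D2:**
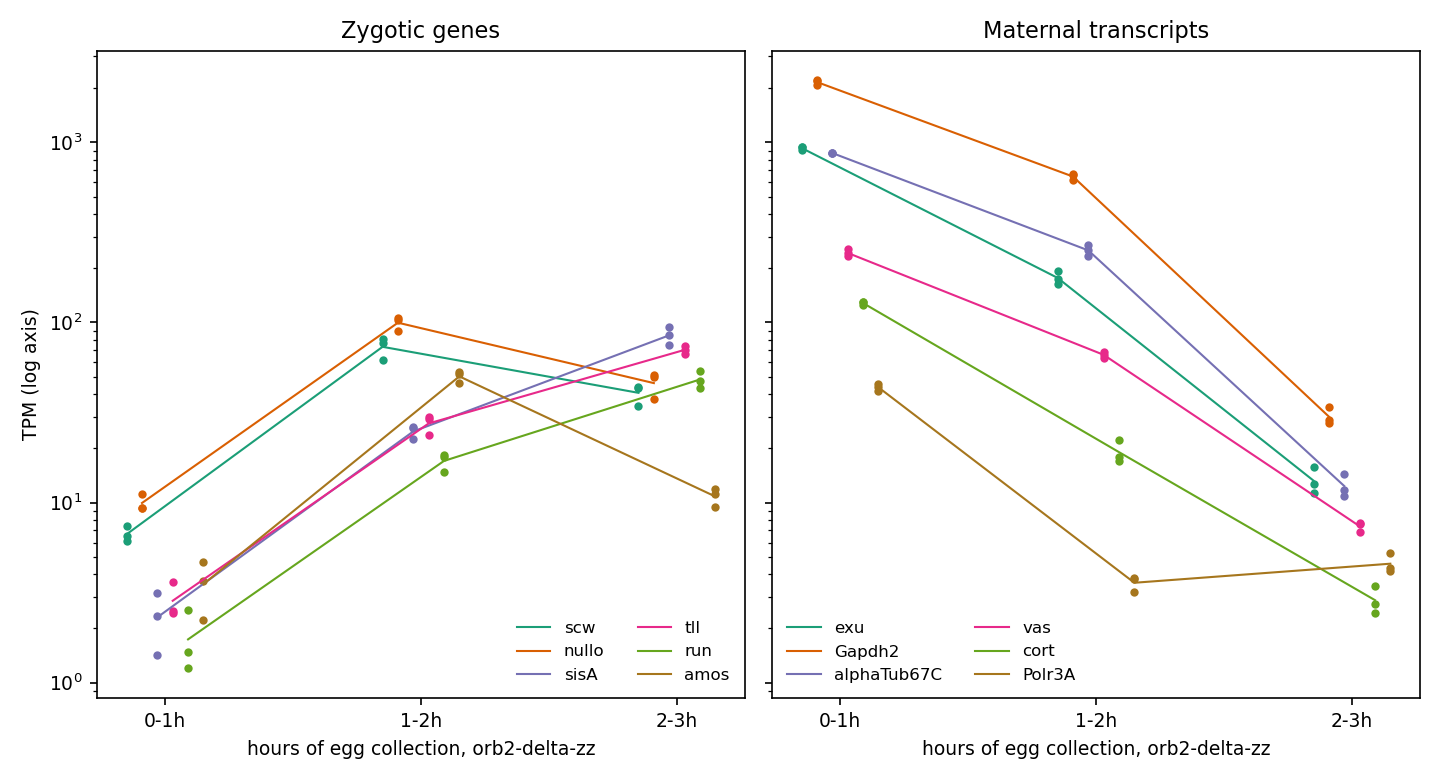
TPM (log axis) of 6 zygotic genes (left) and 6 maternal transcripts (right) in each orb2-delta-zz library; points are libraries, 3 a time, and lines join the means. Each zygotic gene rose from 0-1h to 1-2h, and scw, nullo and amos were lower again at 2-3h; each maternal transcript fell from 0-1h to 1-2h, and Polr3A alone among these 6 had a higher mean at 2-3h than at 1-2h.

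Genes on the list of zygotic genome activation factors, which is not limited to factors that open chromatin, were mostly present in the first hour. Their changes were small apart from that of grh. The gene of the pioneer factor Zelda, zld, had 113, 120.5 and 97.5 TPM at 0-1h and 138, 136 and 135 TPM at 1-2h (log2 change 0.31 ± 0.0745, adjusted p = 0.00604). Trl, which encodes GAGA factor, was called higher with a change of 0.24. The gene grh (grainy head), a zygotic pioneer factor gene of epithelia, went from 1.40, 0.787 and 0.913 to 6.73, 7.22 and 7.12 TPM (log2 change 1.99 ± 0.14). Together 3 of 6 tested members of this list were called higher (50.0%, against 22.4% of all genes). Of the others 1, bigmax, was called lower (16.7%, against 37.3%), and the symbol CLAMP matched no gene.

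The 10 largest falls left between 6.55% and 13.9% of the TPM of the first hour. The gene with FlyBase identifier FBgn0015393, for which the annotation used here gives no symbol, led them, with 294, 298 and 308 TPM at 0-1h and 22.3, 21.9 and 19.4 TPM at 1-2h. This was a change of -3.77 ± 0.0626 on the log2 scale (adjusted p = 4.76e-09). CG31075 went from 130.3, 136 and 129 to 9.26, 10.7 and 10.03 TPM and was nearly gone at 2-3h, at 0.817, 0.855 and 1.28 TPM. Polr3A, the largest subunit of RNA polymerase III, went from 44.0, 45.4 and 41.4 to 3.20, 3.82 and 3.74 TPM (log2 change -3.28 ± 0.0874, adjusted p = 2.42e-08). CCDC53, a subunit of the actin-regulating WASH complex, went from 21.9, 25.8 and 23.2 to 1.01, 1.88 and 1.75 TPM, the smallest share left of the 10; it overlaps RpL36A on the opposite strand.

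The courses of these 10 transcripts after 1-2h differed. For 7 of them the mean was higher at 2-3h than at 1-2h. Among these, libraries did not overlap for FBgn0015393, Polr3A, CG5846, Smyd5 and Mis12, and overlapped for CG1663 and P32. The mean was lower for CG31075, with no overlap, and for CG3652, with overlap, and CCDC53 was not listed at 2-3h. The 2-3h values come from a further table. The 10 were chosen in part for low 1-2h values, which favours a higher mean at 2-3h. The share of all genes whose 1-2h and 2-3h libraries did not overlap was not taken. FBgn0015393 stood at 32.4, 31.7 and 26.01 TPM at 2-3h. Mis12, a subunit of the kinetochore complex of that name, went from 54.1, 56.9 and 53.2 to 6.66, 7.04 and 6.36 TPM, a log2 change of -2.86 ± 0.0719, and stood at 12.99, 14.0 and 16.8 TPM at 2-3h. The same course was seen for CG5846, which had 34.7, 38.0 and 40.7 TPM, then 2.56, 2.88 and 3.57 TPM and at 2-3h 11.6, 10.1 and 10.6 TPM. By contrast CG3652, whose mean was lower again, had 69.3, 67.2 and 67.8 TPM, then 10.3, 10.5 and 7.08 TPM and at 2-3h 8.09, 5.72 and 7.43 TPM. Smyd5, a SET and MYND domain protein gene, went from 25.7, 26.8 and 29.8 to 2.78, 3.19 and 2.71 TPM, P32 from 143, 159.7 and 160.0 to 20.0, 23.7 and 20.8 TPM and CG1663 from 52.6, 60.2 and 56.6 to 5.47, 7.30 and 6.54 TPM.

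Of 19 tested maternal patterning genes, 7 were called lower (36.8%), 2 higher and 10 were not called, with a median change of -0.12; the share called lower was near the 37.3% of all genes tested. The gene exu (exuperantia), whose protein localizes bicoid RNA in the oocyte, went from 905, 948 and 937 to 163, 192 and 175 TPM, which left 19.0% (log2 change -2.39 ± 0.0626, adjusted p = 2.38e-08). The Torso ligand gene trk (trunk) went from 17.9, 22.9 and 20.4 to 7.22, 7.38 and 6.26 TPM. At the posterior, osk (oskar) went from 1029.7, 1070.3 and 981 to 405, 535 and 519.6 TPM and nanos from 748, 789.8 and 811 to 426, 438 and 398 TPM, which left 47.4% and 53.7%. At the anterior, by contrast, bcd (bicoid) had 120.2, 136 and 121 TPM and then 143, 144 and 149.7 TPM, a small rise of 0.21 ± 0.0589 (adjusted p = 0.0123) that 3 alternatives lost. The receptor genes did not pass the test: tor (torso) had 99.6, 108 and 107 and then 85.1, 103 and 108 TPM, and Tl (Toll) had 272, 293 and 271 and then 264, 275 and 289.5 TPM.

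The germ plasm list, RNAs and proteins of the posterior cytoplasm that forms the germ line, leaned further down. Of 18 tested members 13 were called lower (72.2%, against 37.3% of all genes tested) and none higher, with a median of -0.65. The helicase gene vas (vasa) went from 242, 255 and 233 to 63.3, 66.3 and 68.7 TPM (log2 change -1.86 ± 0.0546), though it overlaps solo on the same strand. The scaffold gene tud (tudor) had 130.0, 137 and 119.6 TPM and then 22.6, 49.4 and 53.1 TPM. The first 1-2h library lay far below the other 2 for tud, a transcript of 8830 bases. The piRNA-pathway gene shu went from 59.5, 57.6 and 56.5 to 16.8, 20.6 and 18.5 TPM, whereas aub (aubergine) had 67.7, 69.6 and 63.3 and then 69.8, 67.7 and 70.0 TPM and was not called. CycB, which the germ plasm also protects, had 1892, 1921 and 1758 TPM and then 2127, 1959.6 and 2027 TPM and was not called either.

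Among the regulators of maternal RNA themselves, 10 of 21 tested were called lower (47.6%, against 37.3% of all genes) and 2 higher (median -0.16). The PNG kinase, which drives egg activation and the translation of smaug, had less RNA of its catalytic subunit: png went from 139, 135 and 137 to 59.5, 57.9 and 49.7 TPM (log2 change -1.29 ± 0.0705). The RNA of its activating subunit gnu fell by 0.67, from 309.9, 311 and 303 to 198, 202 and 182 TPM, and that of plu was not called at 134, 142 and 149 and then 152, 151 and 142 TPM. The repressor genes smg (smaug) and brat (brain tumor) were not called, with 683, 716 and 603 and then 642, 683 and 726 TPM for smg and 219, 219 and 191 and then 215, 208 and 205 TPM for brat. The gene of their partner Pumilio, pum, was called higher by 0.26 ± 0.0662, from 119, 129.5 and 111 to 147, 136 and 146 TPM. Repressor complex genes fell moderately, cup by 0.38 and me31B by 0.27.

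In the deadenylation and decay list, 4 of 15 tested genes were called lower (26.7%, against 37.3% of all genes tested). Of the others 1 was called higher and 10 were not called (median of the list -0.08). After trimmed mean rescaling 4 were lower and 4 higher. The 2 large falls were those of Not11, an accessory subunit of the CCR4-NOT deadenylase, from 42.7, 46.9 and 48.4 to 9.46, 8.27 and 9.44 TPM, and of LSm1, a subunit of the decapping activator ring, from 53.7, 53.0 and 60.8 to 12.5, 14.4 and 13.9 TPM. The catalytic subunit genes twin and Pop2 had changes of -0.09 and -0.13 and were not called. The call on PAN2, whose product trims poly(A) tails, was a rise of 0.21 that 3 alternatives lost.

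Of 27 tested cell-cycle genes, 9 were called higher, 9 lower and 9 were not called (median 0.08). The shares were 33.3% higher and 33.3% lower, against 22.4% and 37.3% of all genes tested. After trimmed mean rescaling 15 were higher and 9 lower. The largest fall was that of cort (cortex), a female-specific activator of the anaphase-promoting complex in meiosis, from 125, 130.0 and 129 to 17.1, 22.1 and 17.9 TPM, which left 14.9%. The checkpoint kinase gene mei-41 went from 36.5, 36.7 and 30.9 to 15.5, 17.5 and 17.2 TPM. The mitotic genes aurB and CycB3 were called higher by 0.42 and 0.37. The largest rise was that of Z600 (frühstart), a zygotic inhibitor of mitotic cyclins, from 9.21, 6.99 and 5.30 to 59.0, 52.4 and 67.2 TPM, though Z600 overlaps gdl on the same strand.

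**Figure D3:**
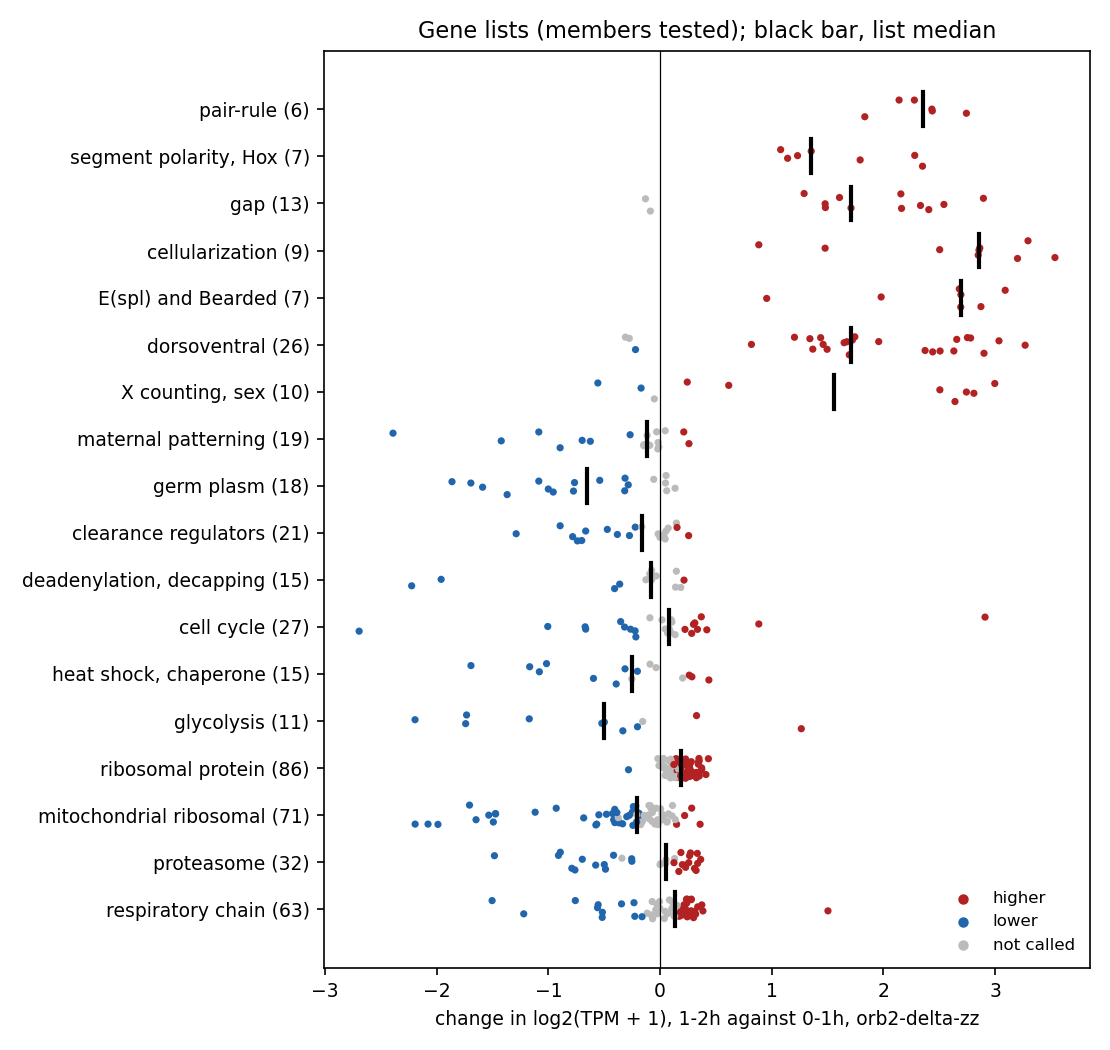
Change in log2(TPM + 1) in orb2-delta-zz, 1-2h minus 0-1h, for each tested member of 18 gene lists; points are genes, coloured by call, bars are list medians, and the number tested stands beside each name. The zygotic lists at the top lie to the right. The maternal lists and most housekeeping lists straddle 0, and the ribosomal protein genes lie mostly slightly to the right of it.

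Housekeeping complexes differed in the direction of their changes. Cytoplasmic ribosomal protein genes were called higher in 53 of 86 cases (61.6%, against 22.4% of all genes) and lower in 1, by small amounts (median 0.18). RpS2, for example, had 4446, 4636 and 4866 TPM and then 6611, 6348 and 5615 TPM, a log2 change of 0.41 ± 0.0758. The summed TPM of the list was 155727, 159407 and 169812 at 0-1h and 184523, 185410.0 and 182380.0 at 1-2h. Mitochondrial ribosomal protein genes leaned the other way, with 37 of 71 called lower (52.1%, against 37.3% of all genes) and 4 higher (median -0.21). The steepest, mRpL38, went from 41.8, 43.5 and 43.1 to 9.24, 9.26 and 7.36 TPM, a log2 change of -2.19 ± 0.0932. After trimmed mean rescaling these counts were 66 higher and 0 lower for the cytoplasmic list and 6 higher and 26 lower for the mitochondrial list. The lone cytoplasmic fall, RpL38, was lost under 4 alternatives.

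Within the proteasome, the core and the regulatory particle parted. Of all 32 tested proteasome genes 43.8% were called higher and 37.5% lower, against 22.4% and 37.3% of all genes tested. Of 14 tested alpha and beta subunits of the proteolytic core, 11 were called higher and none lower, with a median change of 0.24. Prosalpha5 had 497, 484 and 481 TPM and then 682, 589 and 581 TPM. Of 18 tested Rpn and Rpt subunits of the regulatory particle, 12 were called lower and 3 higher, with a median of -0.45. The deubiquitinase subunit gene Rpn11 went from 391, 392 and 394 to 143, 145 and 131 TPM, a log2 change of -1.48 ± 0.0505. This division into core and regulatory particle was made after the values were seen; after trimmed mean rescaling the counts were 12 and 0 for the core and 3 and 12 for the regulatory particle.

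Of 11 tested glycolysis transcripts, most of which the mother supplies in bulk, 8 fell (72.7%, against 37.3% of all genes) and 2 rose (median -0.50). Ldh, 1 of the 2 rises, had a mean TPM under 1 at 0-1h and so had to be higher at 1-2h. The summed TPM of the list went from 5274, 5595 and 5463 to 3002, 2956 and 2849. Gapdh2 alone went from 2076, 2193 and 2215 to 655, 666 and 617 TPM, which left 29.9% (log2 change -1.74 ± 0.0519). Its paralog Gapdh1 fell by 0.50, from 634, 676 and 670.0 to 485, 475 and 441 TPM. Pgi, the isomerase of the second step, went from 237, 263 and 244 to 51.2, 57.6 and 51.5 TPM. Nuclear-encoded respiratory chain genes were called higher in 29 of 63 cases (46.0%, against 22.4% of all genes) and lower in 11 (median 0.13). Among the 62 with a mean TPM of at least 1 at 0-1h, 28 were called higher and 11 lower. UQCR-C2, a core subunit of complex III, was the steepest named fall of that list, from 166, 171 and 159 to 55.8, 63.7 and 53.6 TPM.

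Both maternal tubulin genes of the list fell. The maternal alpha-tubulin gene alphaTub67C went from 871, 868 and 877 to 252, 269 and 233 TPM, a log2 change of -1.79 ± 0.0565, and gammaTub37C, the maternal gamma-tubulin, from 187, 199.5 and 187 to 62.3, 71.7 and 63.4 TPM. The general alphaTub84B went from 1666, 1791 and 1613 to 2427, 2242 and 2231 TPM, a log2 change of 0.44 ± 0.0602; alphaTub84D is nearly identical to it in sequence, so reads of this pair are uncertain. The general gamma-tubulin gene gammaTub23C had a change of 0.13 and was not called (adjusted p = 0.0655). Of 9 tested tubulin and actin genes, 6 were called higher (66.7%, against 22.4% of all genes) and 2 lower (22.2%, against 37.3%). Act87E, 1 of the rises, had a mean TPM under 1 at 0-1h and so had to be higher at 1-2h. The heat shock and chaperone list also holds the transcription factor gene Hsf, which was called lower. Genes of this list were called lower in 8 of 15 cases (53.3%, against 37.3% of all genes) and higher in 3. Among them Hsp26, abundant in the ovary, went from 2048, 1942 and 1837 to 614, 618 and 567 TPM, and Hsp83, the Hsp90 of the fly, from 3036, 3058 and 3011 to 1402, 1596 and 1506 TPM. The constitutive Hsc70-4 was called higher by 0.28. Of the histone variant genes, the centromeric cid fell from 36.5, 39.1 and 44.2 to 13.4, 16.5 and 15.6 TPM, whereas His3.3A rose from 139, 146 and 146 to 201, 176 and 187 TPM. Their list also holds Slbp, which encodes no histone. Of its 7 tested members, 4 were called higher (57.1%, against 22.4% of all genes) and 2, cid and Slbp, lower (28.6%, against 37.3%).

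To learn whether any of this was particular to orb2-delta-zz, the change was set against that of the wild type, whose libraries are separate. In the 7025 genes tested in both genotypes, the changes ran alongside each other, with a Pearson r of 0.96 and a Spearman rho of 0.91 across genes, which are not independent replicates. Both genotypes called 2333 genes, which is 55.3% of the 4219 called in orb2-delta-zz and 96.4% of the 2420 called in the wild type, and 2330 of them had the same sign. The difference itself was tested as the interaction of genotype and time in a limma fit over all 12 libraries. It was called for 6 of 7148 genes (0.0839%), and 315 genes had an unadjusted p under 0.05. The count was 14 after trimmed mean rescaling, 32 without the second wild-type 1-2h library and 13 without the first. That second library stood apart from the other 2 of its group: its summed TPM was 469 for the cellularization list against 990 and 1303, 38.5 for the pair-rule list against 64.7 and 64.2, 3271 for glycolysis against 2044 and 2572, and 75.7 for the late embryo markers against 40.3 and 40.5. The part of this spread in the number of genes called in the wild type was not tested. Of the 314 genes with a rise of at least 2-fold in orb2-delta-zz that the wild type fit also held, all had a positive change in the wild type, with medians of 1.94 and 1.60. The wild-type fit used the same filter, so any of these with a mean TPM under 1 at 0-1h in the wild type had to be higher at 1-2h. How many such genes there were was not counted, so this count of signs is no independent test. Of 810 with a fall of that size, 809 had a negative change in the wild type, with medians of -1.43 and -1.34. The genes were chosen on the orb2-delta-zz values, so the larger orb2-delta-zz medians are no test. None of the 10 largest rises or 10 largest falls was among the 6: scw, for example, rose by 2.26 in the wild type, a difference of 1.01 ± 0.28 (adjusted p = 0.588).

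**Figure D4:**
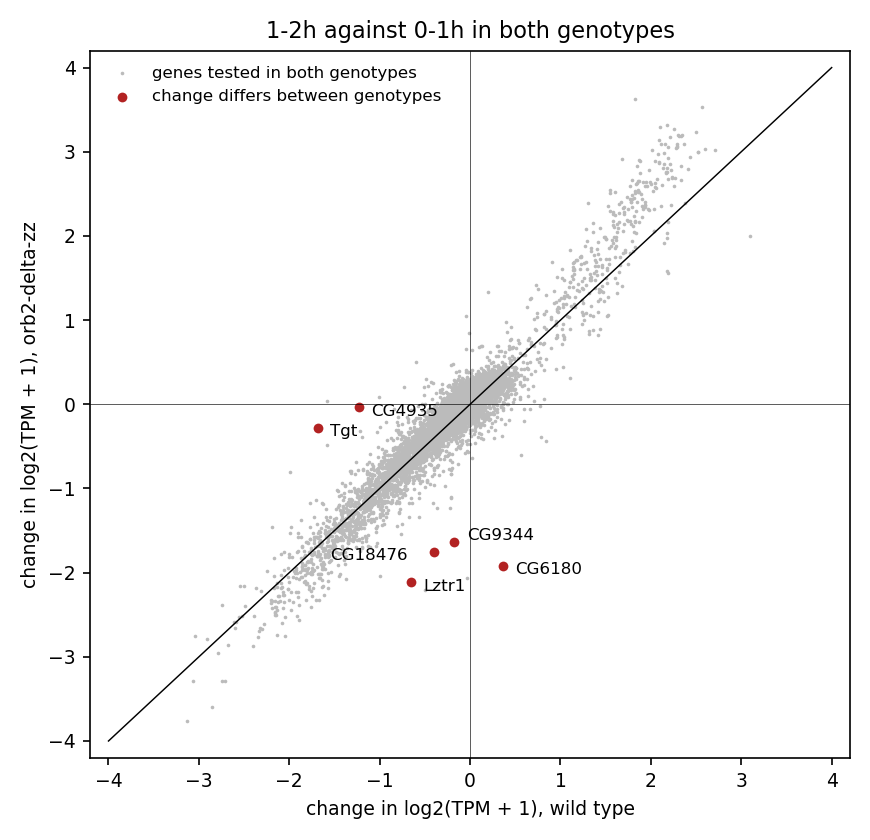
Change in log2(TPM + 1) from 0-1h to 1-2h in the wild type (horizontal) and in orb2-delta-zz (vertical), a point a gene; the line marks equal change. Most genes lie along the line, and the 6 genes whose change differed between genotypes are named.

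CG6180 showed the largest difference. The annotation places it on chromosome 2L at 12707661 to 12708680 (BDGP6, plus strand, a single exon). Its orb2-delta-zz levels were 362, 351 and 359.6 TPM at 0-1h and 91.7, 96.1 and 94.4 TPM at 1-2h, and its wild-type levels were 346, 374 and 348 TPM and 507, 441 and 428 TPM. The genotypes overlapped at 0-1h and were far apart at 1-2h, since the RNA fell by 1.92 in the mutant and rose by 0.36 in the wild type, both called. The difference of changes was -2.28 ± 0.10 (limma interaction, adjusted p = 1.90e-07). This was the only gene still called with the replicate number as a block. CG18476, on 3R at 11674920 to 11678116 on the minus strand, had a similar start in both genotypes, at 31.8, 32.5 and 28.2 TPM in orb2-delta-zz and 31.3, 29.6 and 34.0 TPM in the wild type. At 1-2h it stood at 7.29, 9.23 and 8.83 TPM in orb2-delta-zz and 21.1, 28.2 and 22.3 TPM in the wild type, a difference of changes of -1.35 ± 0.18 (adjusted p = 0.00883).

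For a second pair the genotypes differed from the first hour on. CG9344, which the annotation places on 2R, had 132, 127 and 134 TPM and then 47.1, 43.5 and 34.6 TPM in orb2-delta-zz, and 27.3, 36.8 and 34.5 TPM and then 31.1, 27.3 and 28.0 TPM in the wild type. Lztr1, on X at 922889 to 927582 on the minus strand, had 39.3, 39.4 and 36.9 TPM and then 8.05, 8.79 and 7.62 TPM in orb2-delta-zz, and 4.76, 3.90 and 4.79 TPM and then 2.67, 2.44 and 2.31 TPM in the wild type. In both cases the high level of orb2-delta-zz at 0-1h had fallen much nearer to the wild-type level by 1-2h. The differences of changes were -1.46 ± 0.18 for CG9344 (adjusted p = 0.00622) and -1.46 ± 0.15 for Lztr1 (adjusted p = 0.00189). Lztr1 overlaps CG43867 on the same strand.

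The remaining pair was called lower in the wild type and not called in the mutant. Tgt, which encodes a subunit of the tRNA-guanine transglycosylase and lies on 2L at 1184065 to 1185698 on the plus strand, went in the wild type from 30.9, 33.5 and 32.8 to 8.08, 11.6 and 8.79 TPM. In orb2-delta-zz its levels were 32.5, 34.5 and 32.1 TPM and then 32.3, 27.5 and 22.3 TPM, with the 1-2h libraries spread widely. CG4935, on 2L at 16262141 to 16263483 on the plus strand, went in the wild type from 50.7, 48.4 and 48.4 to 20.5, 23.9 and 17.2 TPM. In orb2-delta-zz its levels were 54.3, 53.6 and 58.3 TPM and then 53.6, 53.3 and 55.0 TPM, and the 2 hours overlapped. The differences of changes were 1.41 ± 0.20 for Tgt (adjusted p = 0.0189) and 1.19 ± 0.14 for CG4935 (adjusted p = 0.00622). The call on Tgt was the least stable, lost when any of 9 libraries was left out and under the block; the 6 genes share no list above.

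**Figure D5:**
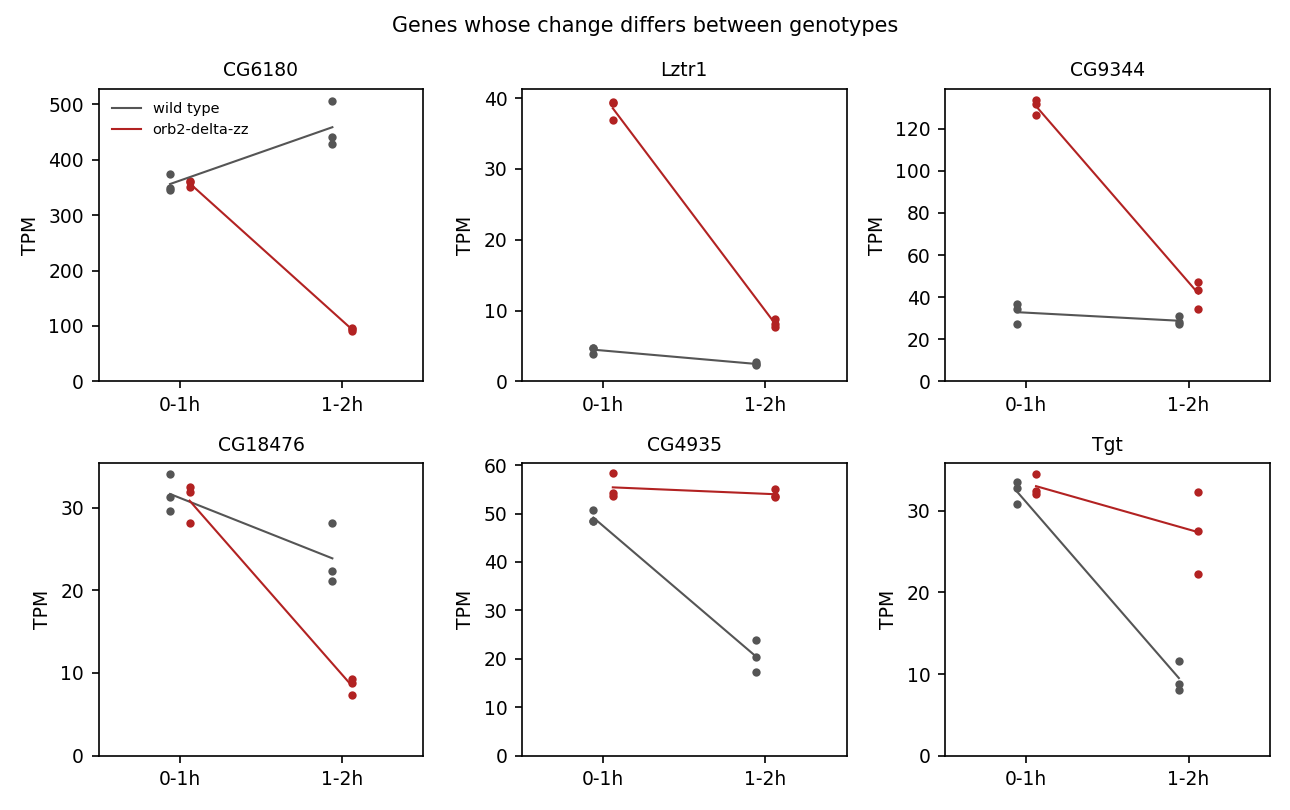
TPM of the 6 genes whose change from 0-1h to 1-2h differed between genotypes, in each wild-type (grey) and orb2-delta-zz (red) library; points are libraries, 3 a group, and lines join the means. CG6180 and CG18476 part at 1-2h, CG9344 and Lztr1 start higher in orb2-delta-zz, and CG4935 and Tgt fall in the wild type.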

How the data were processed

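RNA-seq of whole embryos was deposited by the authors as tables of TPM and of normalized counts (a signal scaled within each table), 1 table of each per time point. The submitters' processing notes name Trim Galore 0.6.5, Salmon 1.9.1 and DESeq2 1.42.1; the genome build and annotation, and whether strand was used in counting, were not given in the sources used here. The library kit keeps strand, per the labels' protocols. The deposited TPM was analysed; the normalized counts, which the authors scaled per table, served only to check that the length factor of a gene is the same in both tables (99.6% of genes within 0.2 on the log2 scale). All table columns were mapped to samples.

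Genes listed at both times with a mean TPM of at least 1 were fitted with limma 3.58.1 (R 4.3.3, mean-variance trend, two-sided) on log2(TPM + 1), with 3 libraries a group; the difference between genotypes was an interaction over 12 libraries. On simulated data with genes changed by 1 on the log2 scale, 97.1% were recovered for the comparison of hours (7100 genes) and 78.7% for the difference between genotypes (7148 genes), and 6.19% and 4.89% of calls were false. Alternatives were the pseudocount, the filter, rescaling, a replicate block, a stricter threshold, a spread shared with the wild type and leaving out each library. No sample was dropped or imputed.

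Symbols and positions came from Ensembl release 115 (BDGP6.54) by FlyBase identifier, for 7532 of the 7591 genes listed at both times. Of the list symbols, 29 matched no gene. The text names orb2, the 10 largest called rises and falls without overlap and with a mean TPM of at least 10 at either time, up to 2 called members of each list in each direction, and the genes whose change differed between genotypes; other list members were named after their values were seen. The groups, the 24 main lists and the 8 further lists were chosen with earlier results of these data known.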

Additional observations from a re-analysis of the deposited data

Results flagged for a closer look

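The change from 0-1h to 1-2h differed between orb2-delta-zz and wild type, by the limma interaction test over 12 libraries, for 6 genes. The difference of changes, orb2-delta-zz minus wild type in log2(TPM + 1), was -2.28 for CG6180, -1.46 for Lztr1, -1.46 for CG9344 and -1.35 for CG18476, and it was 1.41 for Tgt and 1.19 for CG4935. The adjusted p-values lay between 1.90e-07 for CG6180 and 0.0189 for Tgt. Levels in all 12 libraries are given above for each gene.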

How the results depend on the processing

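All 1128 called changes of at least 2-fold kept their sign wherever they were tested again, and between 948 and 1128 kept their call; the 948 are all those left by the filter at a mean TPM of 5. With each library left out in turn, 1330 to 1610 genes were higher and 2450 to 2625 lower; with a spread shared with the wild type these were 1111 and 2224. At a threshold of 0.01, 1025 genes were higher. Calls of at least 2-fold ranged over these settings from 153 rises (filter at a mean TPM of 5) to 345 (pseudocount of 0.1), and from 636 falls (pseudocount of 5) to 863. Same-numbered libraries did not deviate together (r of 0.064, 0.025 and -0.16, and not every library correlated best with its own number). Such correlations, taken from means of 3 libraries, cannot tell whether equal numbers mark a shared collection, and the labels do not say. With a replicate block, 1455 genes were higher and 2596 lower, and 1 gene differed between genotypes. The number of genes that differed between genotypes was otherwise 10 with a pseudocount of 5, 14 after trimmed mean rescaling, 13 after median-of-ratios rescaling, and 4 to 32 with a library left out. The 32 came without the second wild-type 1-2h library and 13 without the first, and the cause was not tested. The small, uncalled log2 change of CG4935 in orb2-delta-zz was 0.034 after trimmed mean rescaling and 0.019 after median-of-ratios rescaling, and between -0.0592 and 0.00109 with a library left out. Among single genes, 43 repeats of a change lost the call, for PAN2, RpL38, Sxl, bcd, bigmax, fog, mRpL51, pAbp, pll and zld, and 18 repeats of a difference did, while 1317 and 102 gave the same call; Tgt gained a call once. The median of the zygotic pattern genes was 2.14, and 2.62 and 1.17 with pseudocounts of 0.1 and 5. Counts for depth were not to be had from TPM, so low genes carry an unknown counting error.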

Other observations

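Several gene groups outside the lists above also changed, and these groups and genes were chosen after values were seen. Over all genes tested, 22.4% were called higher and 37.3% lower, and none of the counts below was tested against these shares. Of the RNA polymerases, 7 of 13 tested RNA polymerase II subunits were called higher and 2 lower, 5 of 7 RNA polymerase I subunits were called lower and 1 higher, and 6 of 10 RNA polymerase III subunits were called lower and none higher; after trimmed mean rescaling 2 subunits of RNA polymerase III were called higher and 5 lower. Among translation factors, 8 of 13 eIF3 subunits were higher and 1 lower, and 7 of 8 eIF2 and eIF2B subunits were lower and none higher. Aminoacyl-tRNA synthetases, which charge tRNAs, were lower in 22 of 33 cases and higher in 5. Sorted by compartment, and with alpha-PheRS and beta-PheRS added, which the 33 do not hold, 14 of 20 cytoplasmic and 10 of 15 mitochondrial enzymes were lower. Among all 35 tested initiation factor genes 10 were higher and 15 lower, and after trimmed mean rescaling 15 were higher and 14 lower.

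Of 24 tested cohesin and kinetochore genes, 14 were lower (58.3%) and 4 higher (16.7%), including SMC1 (log2 change -2.56), SA1 (-2.74) and Mis12 (-2.86), while vtd, the kleisin of the same ring, had a change of 0.10 and was not called. Of 18 tested replication licensing genes 10 were lower (55.6%) and 4 higher (22.2%), with Orc2 at -1.68 and Mcm7 at 0.31. Of 19 tested Polycomb group genes 10 were lower (52.6%) and 5 higher (26.3%, near the share of all genes), and 3 parts of the histone methyltransferase complex PRC2 stood among the falls: E(z) at -2.04, escl at -1.97 and Su(z)12 at -1.44. All 4 tested genes around the Elba insulator complex were higher. Of 21 tested glutathione transferase genes 8 were higher and 7 lower, and GstD1 had the largest fall of them, -2.62.

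Very abundant maternal RNAs were among the falls. Deadhead (dhd), a female-specific thioredoxin, went from 5450.2 ± 177 TPM (SD, n = 3) to 1362 TPM (limma, adjusted p = 3.92e-08). BicC, a repressor of maternal RNA in oogenesis, went from a mean of 933 to 248 TPM. Nacalpha, a subunit of the nascent polypeptide-associated complex, went from a mean of 936 to 186 TPM and Cyp6a19, a cytochrome P450, from 739 to 144 TPM. At the top of the abundance scale stand histone, U1 and U2 snRNA genes, whose near-identical copies leave single-gene values uncertain.

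Genes listed at a single time entered no test. The 0-1h table listed 26 genes that the 1-2h table did not, 7 of them with a mean TPM of at least 1 in orb2-delta-zz, and the 1-2h table listed 597 that the 0-1h table did not, 79 of them at that level. Among the latter CG34266 had between 11.2 and 13.8 TPM and CG13712 had 9.28, 9.08 and 7.62 TPM at 1-2h. No gene of the mitochondrial genome was listed at either time. Of 5 tested late embryo markers 3 were called higher, ImpL2, Act87E and elav; Act87E and elav had a mean TPM under 1 at 0-1h and were tested only through their 1-2h level.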
